A study of Mus musculus with 54 samples.

Results

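The genes that copy DNA, license its origins and supply its building blocks were followed in naive CD4+ T cells stimulated through CD3 and CD28. The set holds 41 genes, chosen by name for these functions among the 55385 gene identifiers of both count tables, and all 41 had reads in both experiments. They were grouped into 10 genes of origin licensing, 6 of helicase activation, 8 of the polymerases and primase, 8 of the sliding clamp, its loader, flap removal and ligation, 3 of the single-strand binding complex, 5 of nucleotide supply, and Uhrf1. RNA was sequenced in 54 libraries from 18 conditions, with 3 libraries in each condition. All mice were of the C57BL/6 background and 8 to 10 wk old, and the cells came from pooled lymph nodes and spleens. In the CD5/CD6 experiment, naive CD4+ T cells of WT, Cd5-/-, Cd6-/- and Cd5-/-Cd6-/- mice were enriched with a magnetic kit. The Cd6-/- mice carried a small deletion around the start codon, the Cd5-/-Cd6-/- mice carried a deletion that spanned both neighboring genes on chromosome 19, and the Cd5-/- line had been backcrossed. In the LAT experiment, all cells came from Lat fl-dtr maT-Cre mice, in which Cre is driven in mature T cells. Cells that still carried human DTR, the diphtheria toxin receptor, were sorted as WT, and cells that lacked it were sorted as Lat-/-. Cells were left unstimulated (0 h) or cultured for 4 or 20 h with anti-CD3 coated on the plate (3 µg/ml) and anti-CD28 in solution (1 µg/ml). WT cells are called CD5/CD6 WT or LAT WT cells after their experiment.

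A resting naive T cell is not replicating its DNA, and stimulation through the antigen receptor and CD28 leads it into a first S phase. Before replication, ORC, CDC6 and CDT1 load the MCM2-7 ring onto origins. In S phase, CDC45 and the GINS complex turn this ring into an active helicase, polymerase alpha-primase starts each strand, and polymerases delta and epsilon extend it with the PCNA clamp. Many of these genes are known targets of the E2F transcription factors, which pocket proteins of the retinoblastoma family hold back in resting cells. LAT is the membrane adaptor through which the T cell receptor reaches its downstream pathways, and CD5 and CD6 are surface receptors that tune that signaling.

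Totals were 20554354 to 45222554 counts in CD5/CD6 libraries and 17784644 to 28501095 in LAT libraries. Levels are given as CPM, the read counts relative to the TMM-scaled size of the library. A floor of 3 counts was worth at most 0.169 CPM of the unscaled library total. The Lat gene had 92.2 to 351 CPM in WT libraries and 5.69 to 19.1 CPM in Lat-/- libraries. At 0 h, a pair of libraries went against their labels. The library labelled Cd5-/- replicate 2 had 719 CPM of Cd5, against 129 and 105 CPM in the other two and 602 to 657 CPM in WT, and the library labelled Cd6-/- replicate 2 had 172 CPM of Cd5 and 1203 CPM of Cd6. Results that rest on the 0 h libraries of these genotypes are therefore given with all libraries and, where it matters, without both. Summed erythroid markers (5 genes) ran from 286 to 4857 CPM at 0 h and from 2.47 to 75.7 CPM at 20 h in the CD5/CD6 experiment, and summed B cell markers (8 genes) ran from 72.4 to 625 CPM and from 1.39 to 6.14 CPM. In the sorted cells of the LAT experiment, the same erythroid sum stayed at or under 3.33 CPM and the same B cell sum at or under 4.90 CPM at every time. The part of these other cells in the CD5/CD6 responses was not tested, but the WT responses of both experiments are given side by side. Summed T cell markers (6 genes, Cd4 among them) were between 2467 and 6799 CPM in every library. Of the 41 replication genes, 20 overlap another annotated gene, 10 of them on the same strand, and the use of strand in counting is not stated, so that reads of Fen1 (opposite Gm10143 and Tmem258), Cdt1, Gins2, Rfc1 and Rpa1 could include some of their partners.

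Promoter sequence is shown because E2F factors are known to act on many of these genes. RefSeq (GRCm38.p6) gave 300-base windows, from 250 bases before to 50 bases after the start site, for 34 of the 41 genes, and Gins1, Gins2, Gins4, Mcm4, Pole, Prim2 and Rfc2 had no entry. The E2F motifs searched on both strands were TTTCCCGC, TTTGGCGC, TTTCGCGC and TTTGCCGC. At least 1 of them was found for 14 of the 34 genes (41.2%), against 2.6% of the 27025 genes with a window. A gene with several windows was counted if any of them held a match. Among genes called higher in WT cells at 20 h, replication genes left out, the share was 6.34% in the CD5/CD6 experiment and 6.75% in the LAT experiment, and among the other genes kept it was 3.14% and 3.43%. The genes with a match were Orc1, Cdc6, Cdt1, Mcm3, Mcm5, Mcm6, Mcm7, Gins3, Pola1, Pold1, Pole2, Rfc3, Lig1 and Uhrf1. The E-box CACGTG, the site of MYC and related factors, was found for 17.6% of the 34 genes and for 8.09% of all genes with a window. A match describes the letters of the window and was not tested as a site. For 8 of the genes, 30 bases around a match are given 5′ to 3′ on the gene's strand, with 1 match, the motif or its reverse complement, in capitals. The stretches of Mcm5, Mcm6 and Rfc3 hold a further match that overlaps the first (Mcm5, Mcm6) or lies beside it (Rfc3) and is left in lower case.
Orc1, chr4:108579416-108579445, plus strand, motif 27 bases before the start site: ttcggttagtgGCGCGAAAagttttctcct
Cdc6, chr11:98908002-98908031, plus strand, 138 bases before: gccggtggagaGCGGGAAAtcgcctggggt
Mcm3, chr1:20820275-20820304, minus strand, 20 bases after: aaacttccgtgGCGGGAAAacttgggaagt
Mcm5, chr8:75109345-75109374, plus strand, 153 bases before: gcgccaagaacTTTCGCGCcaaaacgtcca
Mcm6, chr1:128359797-128359826, minus strand, 110 bases before: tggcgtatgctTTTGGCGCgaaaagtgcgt
Mcm7, chr5:138172030-138172059, minus strand, 165 bases before: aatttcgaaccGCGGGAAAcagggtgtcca
Rfc3, chr5:151651200-151651229, minus strand, 10 bases before: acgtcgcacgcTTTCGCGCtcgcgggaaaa
Uhrf1, chr17:56304117-56304146, plus strand, 185 bases before: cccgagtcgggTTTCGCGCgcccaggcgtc

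To see which replication genes rise as T cells leave rest, WT cells at 20 h were compared with WT cells at 0 h. Nearly the whole set rose. In the CD5/CD6 experiment, 39 of the 41 genes were called higher (more than 2-fold, with an adjusted p under 0.05 by edgeR's quasi-likelihood test), against 12.3% of the 32290 genes tested. The median log2 fold change of the 41 was 3.49, beside 0.058 for all genes averaging 50 counts or more, and 25 of the 41 rose by at least 3 on the log2 scale. In the LAT experiment, 39 genes were again called higher, against 10.8% of the 27780 genes tested, with a median of 3.15 beside -0.021. Rfc1 and Rpa1 were the genes not called in either experiment. In bulk RNA, more cells that express a gene and more RNA per cell cannot be told apart. The share of all counts that fell on the 41 genes went from 0.187% ± 0.00628 (SD, n = 3) at 0 h to 1.37% ± 0.0789 at 20 h in CD5/CD6 WT cells, and from 0.190% ± 0.00748 to 1.28% ± 0.0483 in LAT WT cells.

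**Figure D1:**
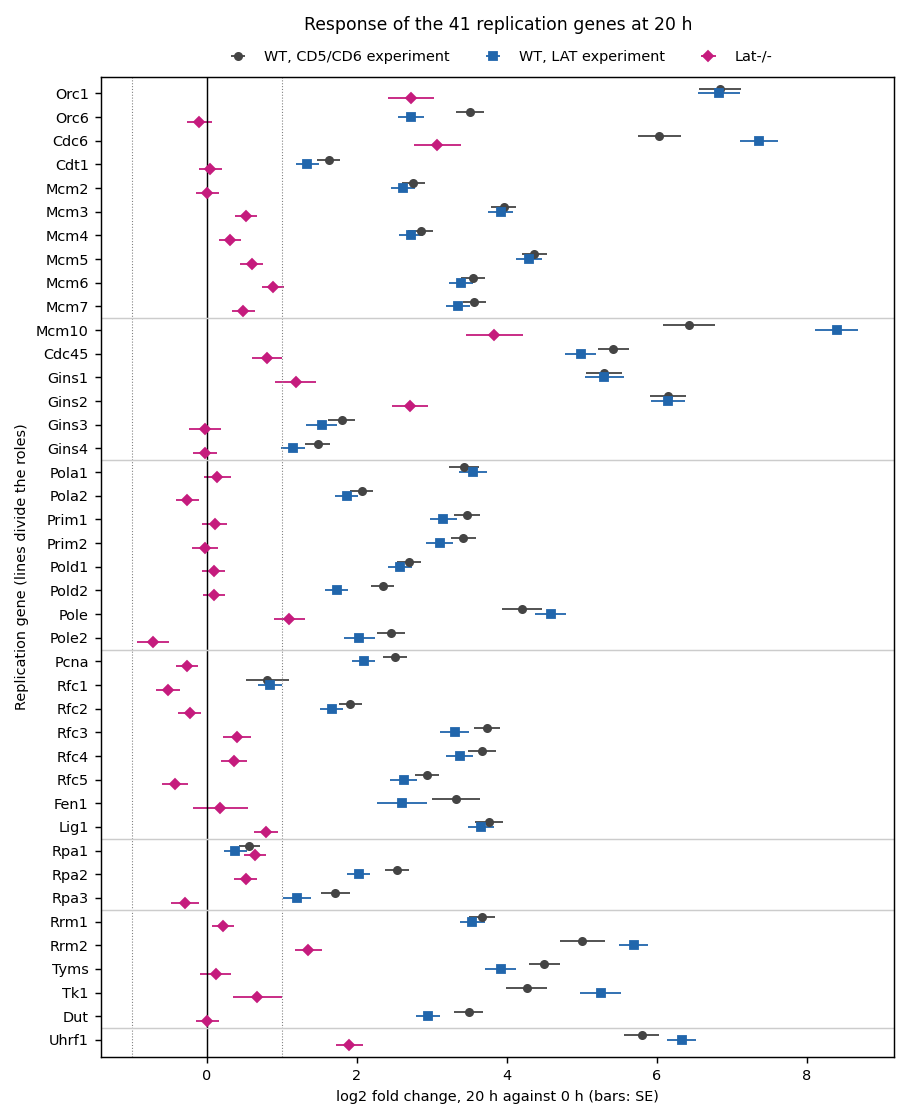
Log2 fold change at 20 h against 0 h (x axis, bars are SE) of the 41 replication genes (y axis, in the order of their roles, divided by lines) in WT cells of both experiments and in Lat-/- cells, with dotted lines at a 2-fold change. The WT points lie right of the dotted line except for Rfc1 and Rpa1, while 33 of the 41 Lat-/- points are not called and lie mostly near 0.

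All 10 licensing genes rose, with a median log2 fold change of 3.56 in CD5/CD6 WT cells and 3.37 in LAT WT cells, and Orc1 and Cdc6 led them. Orc1, the ORC subunit whose level varies with the cell cycle, was at 1.10, 0.391 and 0.727 CPM in the 3 CD5/CD6 WT libraries at 0 h and at 80.1, 91.9 and 80.7 CPM at 20 h (log2 fold change 6.84 ± 0.28 (SE), 115-fold, adjusted p = 3.26e-34). Cdc6, which helps ORC to load the MCM ring, went from 3.62, 1.54 and 1.99 CPM to 159, 166 and 139 CPM (6.03 ± 0.29, adjusted p = 1.21e-30). The libraries of the 2 times were far apart for both genes. The ring subunits, which were already transcribed at 0 h, rose by 2.75 (Mcm2) to 4.37 (Mcm5) on the log2 scale. Mcm5 went from 66.0, 54.9 and 78.2 CPM to 1414, 1335 and 1365 CPM, and Mcm3 from 94.6, 79.6 and 110 CPM to 1535, 1532 and 1339 CPM. Orc6, another ORC subunit, rose by 3.51 ± 0.18. Cdt1, the partner of Cdc6 in loading, had the smallest rise of the 10, from 44.2, 47.2 and 56.4 CPM to 169, 152 and 136 CPM (1.63 ± 0.15, adjusted p = 1.9e-15).

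The helicase activation genes had the highest median of the groups with several genes, 5.36 in the CD5/CD6 experiment and 5.14 in the LAT experiment, and all 6 rose in both. Mcm10, which acts as the helicase starts, was at 2.03, 1.05 and 1.72 CPM in WT cells at 0 h and at 157, 154 and 103 CPM at 20 h (6.43 ± 0.35). In the LAT experiment the same gene went from 0.235, 0.165 and 0.490 CPM to 109, 117 and 88.6 CPM (8.40 ± 0.29), the largest rise of the set there, from a start of 4 to 14 counts in a library. Cdc45 went from 4.42, 3.52 and 5.09 CPM to 187, 189 and 184 CPM (5.42 ± 0.21). Within GINS, a ring of 4 proteins that work as 1 unit, the genes did not rise alike. Gins2 rose by 6.15 ± 0.24 and Gins1 by 5.30 ± 0.24, while Gins3 rose by 1.80 ± 0.18 and Gins4 by 1.48 ± 0.16.

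The 8 polymerase and primase genes all rose, with medians of 3.06 and 2.84. Pole, the catalytic subunit of polymerase epsilon, went from 7.15, 7.14 and 6.67 CPM to 180, 127 and 79.1 CPM (4.20 ± 0.27), with its 3 libraries at 20 h wide apart but all above those at 0 h. Pola1, the catalytic subunit of polymerase alpha, rose by 3.43 ± 0.20, and Prim1, the catalytic primase subunit, by 3.47 ± 0.17. Pold1 and Pold2, of polymerase delta, rose by 2.70 ± 0.16 and 2.34 ± 0.15.

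Among the genes of the clamp, clamp loader, flap removal and ligation, 7 of 8 rose in each WT response, with medians of 3.13 and 2.61. Pcna, the sliding clamp, went from 105, 87.5 and 114 CPM to 588, 542 and 611 CPM (2.51 ± 0.16). Lig1, which seals Okazaki fragments, rose by 3.76 ± 0.19, and Fen1, which trims their flaps, rose by 3.32 ± 0.32 from about 1 CPM to between 8.55 and 10.1 CPM. Of the clamp loader genes, Rfc3 rose by 3.74 ± 0.18 but Rfc1, its largest subunit, was not called. Rfc1 was at 70.7, 81.6 and 49.3 CPM at 0 h and at 152, 140 and 60.5 CPM at 20 h (0.81 ± 0.29, adjusted p = 0.0202). It was the only gene of the 41 whose WT libraries at 0 and 20 h overlapped in the CD5/CD6 experiment. For the other 40, all 20 h libraries were above all 0 h libraries. The same held for 19.3% of the genes tested and for 41.5% of those averaging 50 counts or more, as all 41 did. In the LAT experiment none of the 41 overlapped, and Rfc1 stood at 0.85 ± 0.16. There, 21.1% of the genes tested had all 20 h libraries above, and so had 39.3% of those averaging 50 counts or more. Without replicate 3 at 20 h, Rfc1 was called higher in CD5/CD6 WT cells (1.12), as it was without replicate 1 at 0 h in LAT WT cells (1.00).

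The single-strand binding genes had the smallest medians, 1.71 and 1.20. Rpa2 rose by 2.53 ± 0.16 and Rpa3 by 1.71 ± 0.19, but Rpa1, the large subunit, had a log2 fold change of 0.57 ± 0.14 (adjusted p = 0.000764) and stayed under 2-fold. Rpa1 was at 341, 330 and 365 CPM before stimulation and at 557, 521 and 457 CPM at 20 h, so that its libraries did not overlap between the times. Nucleotide supply had medians of 4.26 and 3.92, and all 5 genes rose in both experiments. Rrm2, the subunit of ribonucleotide reductase that is made in S phase, went from 19.5, 8.52 and 11.7 CPM to 461, 415 and 400 CPM (5.01 ± 0.30), and Rrm1, its partner subunit, rose by 3.67 ± 0.18. Tyms, which makes thymidylate, rose by 4.50 ± 0.21, Tk1, which salvages thymidine, by 4.26 ± 0.27, and Dut, which keeps uracil out of DNA, by 3.49 ± 0.19. Uhrf1, which brings the maintenance methyltransferase to newly copied DNA, rose by 5.80 ± 0.24 in the CD5/CD6 experiment and by 6.33 ± 0.20 in the LAT experiment.

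The WT responses of the 2 experiments, which share no libraries, ranked the genes in much the same order. Across the 41 genes, which are not independent replicates, Pearson's r between the 20 h log2 fold changes was 0.969 and Spearman's rho was 0.981, as a description. The largest gap was that of Mcm10, 1.97 on the log2 scale. Many of the genes that rose most stood low before stimulation. On the scale of CPM per kilobase of annotated gene length, the 8 genes with a log2 rise of 5 or more in the CD5/CD6 experiment (Orc1, Cdc6, Mcm10, Cdc45, Gins1, Gins2, Rrm2 and Uhrf1) all stood at place 23 or lower of 41 in WT cells at 0 h, with Orc1 and Mcm10 last at 0.212 and 0.208. Rpa1, at 61.9 ± 3.21 (SD, n = 3), and Pcna, at 42.6 ± 5.60, stood first. At 20 h the ring genes led the order, with Mcm3 at 391 ± 30.0, Mcm5 at 343 ± 9.98 and Mcm6 at 279 ± 16.5 CPM per kilobase, and Fen1 was last at 3.89 ± 0.321.

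**Figure D2:**
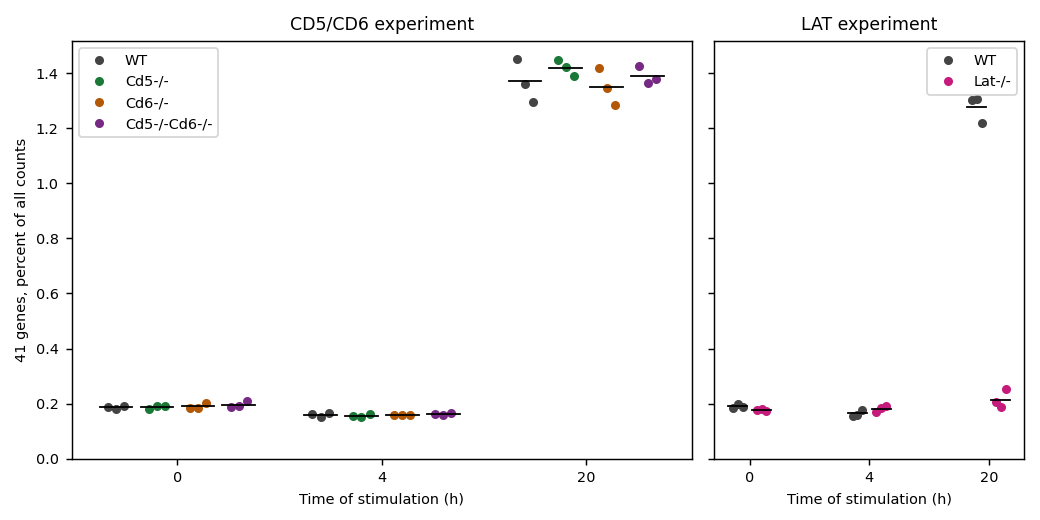
Percentage of all counts of a library that fell on the 41 replication genes (y axis) by genotype and time (x axis, h), with 1 point per library and a line at the mean. At 20 h the genotypes of the CD5/CD6 experiment had means of 1.35% to 1.42% and LAT WT cells 1.28%, whereas Lat-/- cells had 0.214%.

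At 4 h, the rise had hardly begun. In CD5/CD6 WT cells, 2 of the 41 genes were called higher than at 0 h (8.24% of all genes tested were) and 3 were called lower (11.1% of all genes tested), and the median log2 fold change was -0.16 beside -0.020 for genes averaging 50 counts or more. In LAT WT cells 1 gene was called higher (background 8.05%) and 3 lower (background 9.29%), with a median of -0.28 beside -0.0097. These shares of the 41 genes are under the backgrounds. Pcna was the gene called higher in both. It went from 105, 87.5 and 114 CPM to 260, 225 and 282 CPM in the CD5/CD6 experiment (1.32 ± 0.15, adjusted p = 1.34e-11) and from 110, 129 and 112 CPM to 277, 283 and 284 CPM in the LAT experiment (1.26 ± 0.15, adjusted p = 8.71e-16). The libraries of the 2 times did not overlap in either experiment. Pold2, which binds PCNA within polymerase delta, had log2 fold changes of 1.10 ± 0.15 (called) and 0.82 ± 0.15 (not called).

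Cdc6 and Rfc1 were called lower at 4 h in both WT responses, but these calls depended on the fit. For LAT WT cells, DESeq2 and the low-count filter called neither, RLE factors and the replicate block lost Rfc1, as did leaving out WT replicate 1 or 3 at 0 h or replicate 2 at 4 h, and a fit of the compared groups lost Cdc6. For CD5/CD6 WT cells, Cdc6 was lost without WT replicate 1 at 0 h, and Rfc1 without replicate 2 at 0 h or replicate 3 at 4 h. Cdc6 went from 3.62, 1.54 and 1.99 CPM to 1.70, 0.570 and 0.497 CPM (-1.36 ± 0.29) and, in the LAT experiment, from 0.784, 0.455 and 0.945 CPM to 0.187, 0.275 and 0.302 CPM (-1.50 ± 0.37), where the 4 h libraries held 4, 6 and 8 counts. Rfc1 had changes of -1.10 ± 0.29 and -1.01 ± 0.16. Rpa1, the most abundant of the set per length at 0 h, fell from 341, 330 and 365 CPM to 125, 125 and 137 CPM in the CD5/CD6 experiment (-1.42 ± 0.15, adjusted p = 2.25e-13), and went from 342, 390 and 365 CPM to 166, 170 and 250 CPM in the LAT experiment (-0.90 ± 0.15, not called by the 2-fold rule). Rpa1 thus had a level under its start at 4 h and above it at 20 h in every WT library of both experiments. Pole2, a polymerase epsilon subunit, was called lower only in the LAT experiment (-1.19 ± 0.21), and the difference from the CD5/CD6 value of -0.38 ± 0.18 was not tested, since the tables were not fitted together. Scaling by library totals without TMM factors moved the median of all genes at 4 h by -0.25 (CD5/CD6) and -0.24 (LAT), and then 1 gene was called higher and 6 lower in the CD5/CD6 experiment.

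Between 4 and 20 h, all 41 genes were called higher in CD5/CD6 WT cells (background 8.74%, median 3.44) and 38 in LAT WT cells (background 7.9%, median 3.23). The 3 genes not called in the latter were Pcna (0.83 ± 0.15), Pold2 (0.90 ± 0.15) and Cdt1 (0.78 ± 0.15), whose 4 h levels were above their 0 h levels in every library. Rfc1 and Rpa1, which were not called between 0 and 20 h, rose between 4 and 20 h by 1.90 ± 0.30 and 1.99 ± 0.15 in the CD5/CD6 experiment.

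Subunits that work in fixed ratios can be compared on the scale of CPM per kilobase. In CD5/CD6 WT cells, the highest of the 4 GINS genes was 57.9 times the lowest at 0 h (Gins4 at 29.9 and Gins2 at 0.516 CPM per kilobase) and 7.41 times at 20 h (Gins4 at 83.3 and Gins3 at 11.2). Library by library, this ratio ran from 51.9 to 65.7 at 0 h and from 6.47 to 8.82 at 20 h, so that the times did not overlap. In LAT WT cells it was 80.4 at 0 h and 8.30 at 20 h. The RPA genes also drew closer, with a ratio of 4.40 at 0 h and 1.99 at 20 h. The MCM2-7 genes were within 2.64-fold of each other at 0 h and 3.60-fold at 20 h, and the clamp loader genes within 4.49-fold and 4.66-fold. Library by library, the clamp loader ratio at 20 h ran from 3.38 to 9.92. By the means, Rfc1 was the highest of its complex at 0 h and the lowest at 20 h. In LAT WT cells it was also the lowest at 20 h, but at 0 h Rfc2 (9.33) stood just above Rfc1 (9.23). These ratios concern RNA, and annotated lengths count every exon of a gene.

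Other genes of the same processes, listed by function, moved with the set. Of 68 such genes, 52 were called higher (background 12.3%) and 3 lower (background 17.3%) in WT cells at 20 h in the CD5/CD6 experiment (median 2.48), and 49 of 67 were called higher (background 10.8%) and 3 lower (background 12.7%) in the LAT experiment. Among 12 kinases and licensing regulators of S phase, 11 rose in each experiment. Chek1, the S phase checkpoint kinase, rose by 6.22 ± 0.26 and 6.99 ± 0.25, and Cdk1, which drives mitotic entry, by 5.35 ± 0.30 and 6.39 ± 0.24. All 8 genes of chromatin replication rose, led by Chaf1a, a histone chaperone subunit at the fork (5.61 ± 0.26 and 6.36 ± 0.24), and Hells, a remodeler tied to DNA methylation (5.40 ± 0.20 and 5.54 ± 0.19). Of 13 genes of origin firing and fork protection, 12 rose, among them Dna2, a nuclease that trims flaps (5.12 ± 0.23), and Clspn, a checkpoint mediator at the fork (5.09 ± 0.36). Of the mitotic genes, 9 of 10 and 10 of 10 rose.

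The E2F and pocket protein genes were split. Of 13, 7 rose and 1 fell in the CD5/CD6 experiment and 6 rose and 1 fell in the LAT experiment. E2f1, an activator, rose by 4.44 ± 0.20 and 4.36 ± 0.22, and E2f7, a repressor made in S phase, by 4.47 ± 0.40 and 6.87 ± 0.65. Rbl2, the pocket protein p130 of resting cells, had log2 fold changes of -2.50 ± 0.20 and -1.72 ± 0.16. Of the genes that extend nucleotide supply, 9 of 13 rose at 20 h and 2 fell, and 6 had been called higher at 4 h in each experiment (backgrounds 8.24% and 8.05%). Shmt1, which feeds carbon units into thymidylate synthesis, was already at its 20 h change by 4 h, with 4.96 ± 0.19 and 4.95 ± 0.19 in the CD5/CD6 experiment, and Umps, of pyrimidine synthesis, had 2.43 ± 0.16 at 4 h. Rrm2b, the ribonucleotide reductase subunit of resting cells, went the other way from Rrm2, with -1.28 ± 0.16 at 20 h in the CD5/CD6 experiment and -1.46 ± 0.17 in the LAT experiment. Of 9 further subunits of the same complexes, 5 rose in the CD5/CD6 experiment, with Pold3 at 2.41 ± 0.16 and Orc2 at 2.08 ± 0.16, while Orc4 (0.93 ± 0.15) and Orc5 (0.91 ± 0.15) were under 2-fold.

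Next, the loss of CD5, of CD6 or of both was asked for its effect on the replication genes. Each knockout made a similarly broad rise. At 20 h against 0 h, 39 of the 41 genes were called higher in Cd5-/- cells (background 12.5%), in Cd6-/- cells (background 11.4%) and in Cd5-/-Cd6-/- cells (background 12.3%), with medians of 3.58, 3.45 and 3.54. Rfc1 and Rpa1 were again the genes not called, with log2 fold changes between 0.46 and 0.81. At 4 h against 0 h, the counts were small as in WT cells. In Cd5-/- cells 2 genes (Pcna at 1.31 and Pold2 at 1.03) were called higher (background 8.2%) and 4 (Cdc6, Rfc1, Rpa1 and Rrm2) lower (background 11.3%). In Cd6-/- cells Pcna was the 1 gene called higher (1.12, background 7.72%) and Cdc6 and Rpa1 were the 2 called lower (background 10.2%). In Cd5-/-Cd6-/- cells Pcna (1.15) and Fen1 (1.05) were called higher (background 7.57%) and Cdc6, Mcm10, Rfc1 and Rpa1 lower (background 9.66%). Without both 0 h libraries that went against their labels, 2 genes (Rfc1 and Rpa1) were called lower in Cd5-/- cells at 4 h, and the 20 h counts stayed at 39. These responses share no libraries with each other. The differences from WT were tested as follows, and the knockouts share the WT libraries of each time, so that their differences are not independent.

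With all libraries, no replication gene was called different from WT by edgeR in any knockout at any time. Calls appeared when libraries were left out. Without both 0 h libraries that went against their labels, Mcm10 and Tk1 were called lower in Cd5-/- cells at 0 h. Summed B cell markers at 0 h were 78.3 to 110 CPM in all libraries labelled Cd5-/- and 116 to 625 CPM in WT libraries. Summed erythroid markers were 286 to 1806 and 1070 to 2459 CPM, and the part of these other cells was not tested. Rrm2 was called lower in Cd5-/- cells at 4 h without replicate 3 of WT or of Cd5-/- cells at 4 h. In Cd5-/- cells the counts called were 0 of 41 at 0 h (0.0619% of all genes tested were called), 0 at 4 h (0.0743%) and 0 at 20 h (0.0186%), and at an unadjusted p under 0.05 they were 0, 1 and 0. In Cd6-/- cells they were 0 at 0 h (background 0%), 0 at 4 h (0.0031%) and 0 at 20 h (0.0186%), and 0, 1 and 0 at an unadjusted p under 0.05. In Cd5-/-Cd6-/- cells they were 0 at 0 h (0.0248%), 0 at 4 h (0.0434%) and 0 at 20 h (0.0434%), and 1, 2 and 0 at an unadjusted p under 0.05. DESeq2 called 0 of the 41 in each of these 9 comparisons. The backgrounds are so low that 0 of 41 is near them in each case. The intervals say more. At 20 h, the 95% interval of the log2 difference from WT lay within 1 in either direction, that is within 2-fold, for all 41 genes in each of the 3 knockouts. These intervals ran from -0.67 to 0.70 in Cd5-/- cells, from -0.68 to 0.57 in Cd6-/- cells and from -0.81 to 0.77 in Cd5-/-Cd6-/- cells. The median differences were 0.087, -0.024 and 0.051.

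**Figure D3:**
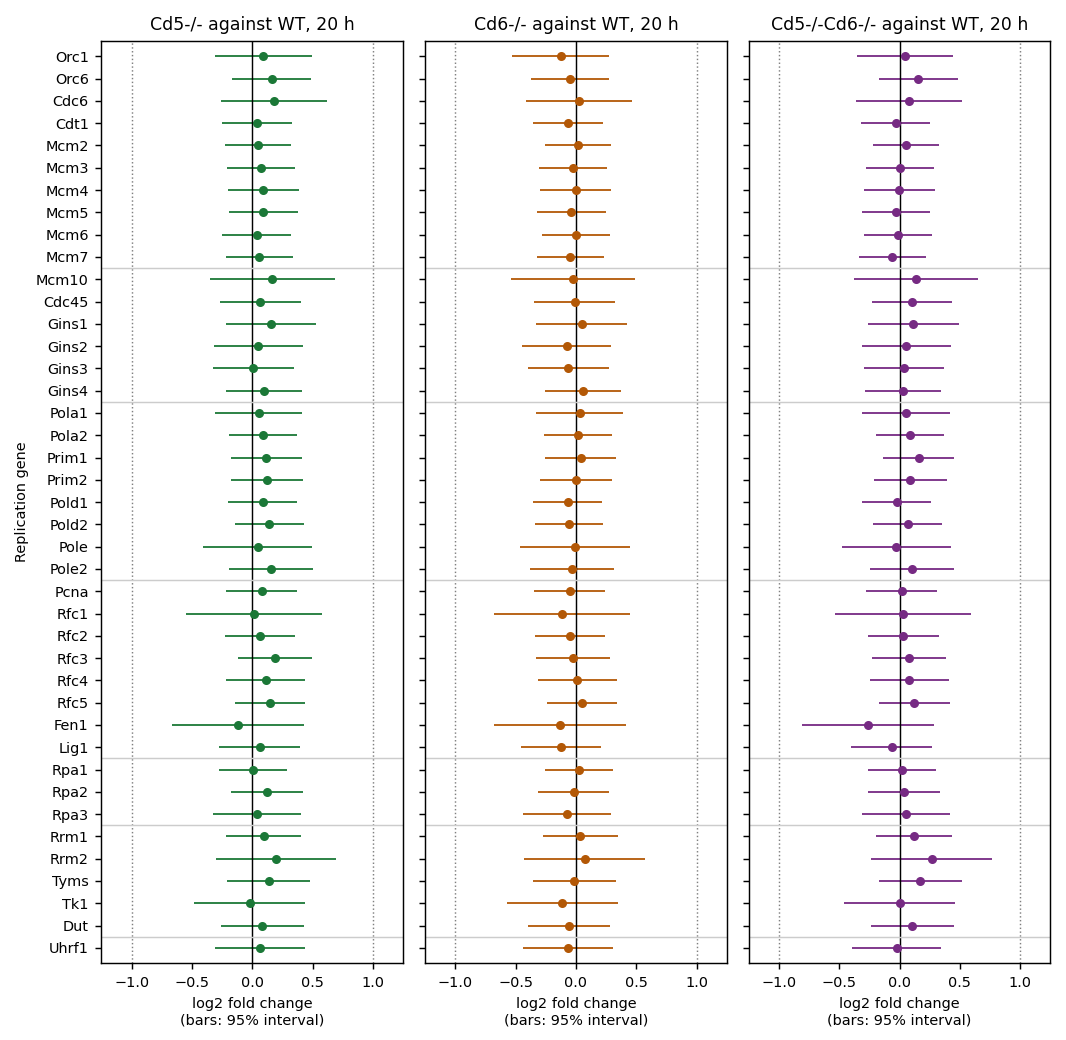
Log2 difference from WT at 20 h (x axis, bars are 95% intervals) of the 41 replication genes (y axis) in Cd5-/-, Cd6-/- and Cd5-/-Cd6-/- cells. All bars lie between -1 and 1, the dotted lines of a 2-fold difference, and 0 genes were called.

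The log2 differences at 20 h were small, and those above 0 numbered 39 of 41 in Cd5-/- cells, 13 in Cd6-/- cells and 31 in Cd5-/-Cd6-/- cells, beside medians of 0.017, -0.0080 and 0.0013 for all genes averaging 50 counts or more. In Cd5-/- cells the scaling moves all values together, and without TMM factors that median was lower by 0.031 (-0.014 in place of 0.017). Rrm2 had the largest difference in Cd5-/- cells, 0.20, with 463, 486 and 515 CPM in Cd5-/- cells and 461, 415 and 400 CPM in WT cells. The 3 Cd5-/- libraries were above the 3 WT libraries for Rrm2 and Cdc6 alone, that is for 2 of 41 genes against 1.99% of the genes tested, and the other 39 overlapped. In Cd5-/-Cd6-/- cells, Rrm2 was at 487, 492 and 556 CPM (0.27) and Prim1 at 177, 181 and 200 CPM against 151, 173 and 176 CPM in WT cells (0.16). Both were above all WT libraries (2.08% of the genes tested were). Fen1 was below them there, with 7.35, 7.77 and 8.47 CPM against 10.1, 8.55 and 9.63 CPM (background 2.83%). In Cd6-/- cells all 41 genes overlapped with WT, while 3.52% of the genes tested did not. For genes averaging 50 counts or more, as all 41 did, these backgrounds were 2.97%, 3.15%, 4.37% and 4.06% in the same order, so that the counts are near them and are no result about the replication genes. In Cd6-/- cells at 20 h, Fen1 had the largest difference (-0.13) and Lig1 the smallest p (-0.12).

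At 0 and 4 h, the levels are lower and the intervals wider. At 0 h they lay within 2-fold for 38 genes in libraries labelled Cd5-/- (not Mcm10, Fen1 and Tk1), for 40 in libraries labelled Cd6-/- (not Fen1) and for 39 in Cd5-/-Cd6-/- libraries, and at 4 h for 39 in each genotype. The largest differences were those of low genes. Fen1 at 0 h had log2 differences of -0.57, -0.55 and -0.84 in Cd5-/-, Cd6-/- and Cd5-/-Cd6-/- cells, with 0.528, 0.536 and 0.508 CPM in the last and 1.06, 0.753 and 0.994 CPM in WT cells. Rrm2 at 4 h differed by -0.77 in Cd5-/- cells (unadjusted p = 0.00678 by edgeR, not called after adjustment), with 3.17, 4.75 and 7.47 CPM against 16.1, 5.57 and 4.33 CPM in WT cells, which overlapped. Orc1 at 4 h differed by 0.63 in Cd6-/- cells and 0.51 in Cd5-/-Cd6-/- cells.

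Tested directly, the difference between the 20 h response of each knockout and that of WT cells was not called for any of the 41 genes (edgeR, 0 in Cd5-/- with 0.0031% of all genes tested called, 0 in Cd6-/- with 0.0031% and 0 in Cd5-/-Cd6-/- with 0%), and 0 genes reached an unadjusted p under 0.05 or were called by DESeq2. The largest were Mcm10 in Cd5-/- cells (0.70), Fen1 in Cd6-/- cells (0.42) and Fen1 in Cd5-/-Cd6-/- cells (0.57). The 0 h libraries that went against their labels bear on these values. Mcm10 was at 0.541 and 0.667 CPM in replicates 1 and 3 labelled Cd5-/- at 0 h and at 2.25 CPM in replicate 2, and Tk1 at 1.49, 1.80 and 3.70 CPM. Without both libraries, Mcm10 was also called as rising more in Cd5-/- than in WT cells.

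In the LAT experiment, the question was what remains of the replication genes' rise when the adaptor is missing. Very little remained at 20 h. Of the 41 genes, 40 were called lower in Lat-/- than in WT cells at 20 h (12.3% of all genes tested were), with a median log2 difference of -3.05 beside a median near 0 for all genes averaging 50 counts or more. The 40 genes had all 3 Lat-/- libraries below all 3 WT libraries, as had 22.7% of the genes tested and 42.5% of those averaging 50 counts or more. The difference between the responses, tested as an interaction, was also called lower for 40 genes (background 9.35%), with a median of -2.91. Rpa1 was the exception in both, at 0.21 ± 0.15 (adjusted p = 0.295) at 20 h, with 523, 593 and 542 CPM in Lat-/- and 485, 492 and 451 CPM in WT cells. The share of all counts on the 41 genes was 0.214% ± 0.0331 (SD, n = 3) in Lat-/- cells at 20 h, against 0.177% ± 0.00366 at 0 h. Markers of activation moved with this result, since 5 of them (Il2ra, Cd69, Myc, Nr4a1 and Tfrc) summed to 159, 224 and 454 CPM in Lat-/- libraries and to 3176 to 3363 CPM in WT libraries at 20 h, and 5 naive markers summed to 8421 to 9976 and 1637 to 1827 CPM. Myeloid markers (9 genes) summed to 12.5 to 18.2 CPM in Lat-/- and at most 0.839 CPM in WT libraries at 20 h. CD8 and NK markers (5 genes) summed to 69.5 to 88.8 and 12.8 to 14.8 CPM. In Lat-/- cells at 20 h, only 2 of the 9 genes and 2 of the 5 reached 1 CPM in any library, so that each sum rests on few genes. The part of these markers in the result was not tested.

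**Figure D4:**
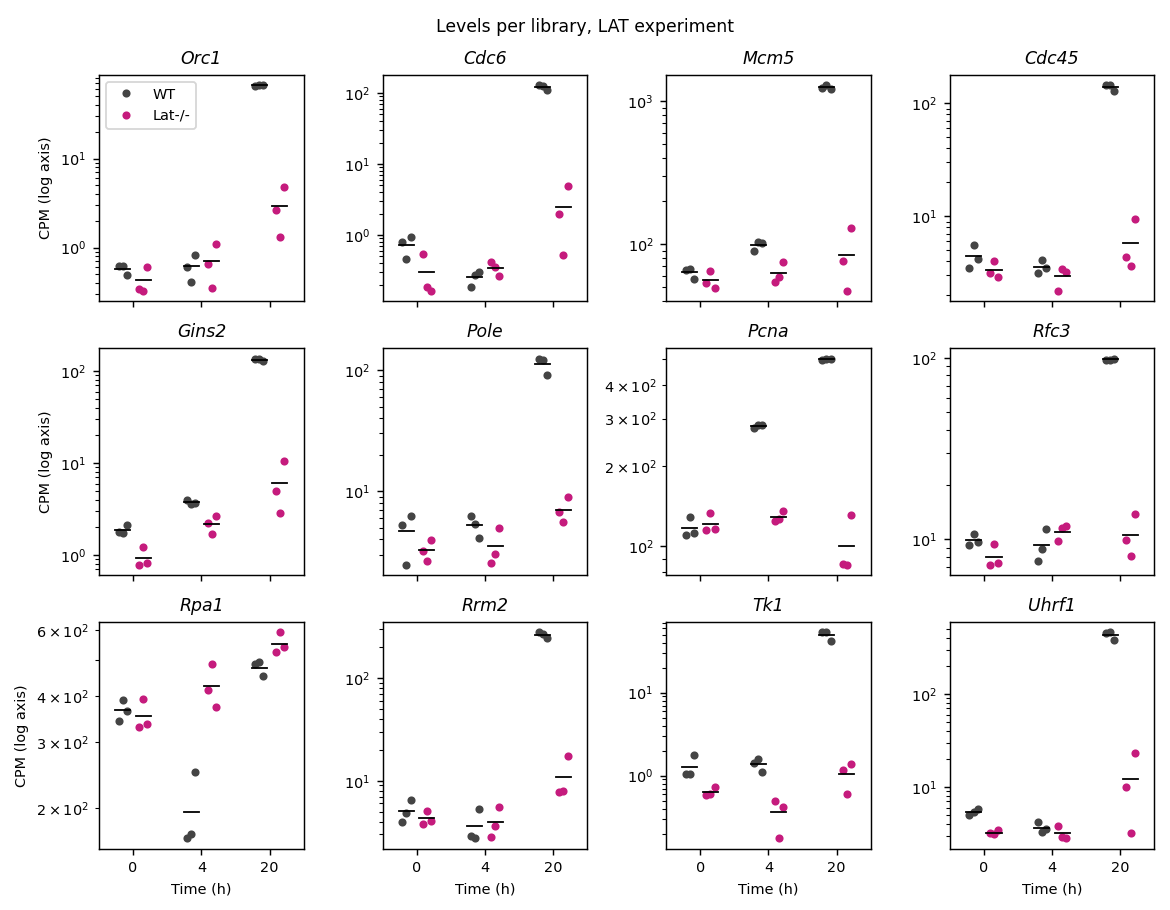
CPM on a log axis (y axis) of 12 replication genes in each library of the LAT experiment, by time after stimulation (x axis, h), for WT and Lat-/- cells, with a line at the mean. WT points of Orc1 climb from under 1 CPM at 4 h to 65 to 67.3 CPM at 20 h and Lat-/- points reach 1.3 to 4.79 CPM, while the points of Rpa1 stay at 166 CPM or more in both genotypes.

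By role, among the groups with several genes, the differences at 20 h were largest for helicase activation (median -4.39, 6 of 6 lower) and nucleotide supply (-4.24, 5 of 5), followed by the polymerases and primase (-3.05, 8 of 8), the clamp and ligation group (-2.98, 8 of 8), licensing (-2.87, 10 of 10) and single-strand binding (-1.50, 2 of 3). Mcm10 differed most, with 1.82, 0.148 and 4.12 CPM in Lat-/- and 109, 117 and 88.6 CPM in WT cells (-5.71 ± 0.24, 52.2-fold lower, adjusted p = 1.13e-126). Cdc6 followed with 1.97, 0.520 and 4.96 CPM against 131, 126 and 109 CPM (-5.63 ± 0.23), and Tk1 with 1.16, 0.594 and 1.39 CPM against 53.1, 53.5 and 41.5 CPM (-5.57 ± 0.28). All 3 were among the genes that rose by 5 or more in WT cells of this experiment. Uhrf1 was at 9.91, 3.19 and 23.2 CPM against 450, 462 and 383 CPM (-5.16 ± 0.18), and Rrm2 at 7.74, 7.90 and 17.3 CPM against 281, 267 and 246 CPM (-4.59 ± 0.18). The smallest called differences were those of Gins4 (-1.07 ± 0.16) and Cdt1 (-1.11 ± 0.15), which had also risen little in WT cells.

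Rfc1 was lower in Lat-/- cells although it was not called in the WT response. It was at 39.6, 33.6 and 31.4 CPM in Lat-/- and 113, 101 and 85.5 CPM in WT cells at 20 h (-1.52 ± 0.16). In Lat-/- cells it had been at 51.6, 47.6 and 51.1 CPM at 0 h, above all its 20 h libraries. Pcna was at 85.7, 85.6 and 131 CPM in Lat-/- and 494, 499 and 502 CPM in WT cells at 20 h (-2.31 ± 0.16). Mcm5 was at 76.5, 47.1 and 129 CPM against 1238, 1299 and 1211 CPM (-3.89 ± 0.17), and the Lat-/- libraries of Mcm5 at 20 h overlapped with those at 0 h, which held 53.1, 64.5 and 49.4 CPM. Pole was at 6.73, 5.53 and 8.87 CPM against 125, 121 and 91.4 CPM (-4.00 ± 0.20).

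A small rise was also seen in the libraries sorted as Lat-/-. Some Lat RNA remained in these libraries, as given above, and its part in the rise was not tested. At 20 h against 0 h, 8 of the 41 genes were called higher (background 2.14%), with a median of 0.21 over the 41 beside -0.012 for genes averaging 50 counts or more. They were Orc1 (2.72 ± 0.31), Cdc6 (3.07 ± 0.32), Mcm10 (3.83 ± 0.38), Gins1 (1.18 ± 0.27), Gins2 (2.71 ± 0.24), Pole (1.10 ± 0.20), Rrm2 (1.35 ± 0.18) and Uhrf1 (1.90 ± 0.18). Of these 8, 7 were also among the 8 genes that rose by 5 or more on the log2 scale in WT cells, Tk1 being the one missing (0.67 ± 0.33) and Pole the one added. The counts behind some are low, since Mcm10 had 2, 4 and 3 counts at 0 h and 36, 4 and 98 counts at 20 h, so that its fitted value rests on a start near the floor of 3 counts. For Cdc6, Mcm10 and Uhrf1, the 20 h libraries overlapped with those at 0 h. Their levels in Lat-/- replicate 2 at 20 h were 0.520, 0.148 and 3.19 CPM, beside Lat-/- means of 0.297, 0.136 and 3.23 CPM at 0 h. Between 4 and 20 h, 11 genes were called higher (background 2%). Between 0 and 4 h, Gins2 was called higher (1.23 ± 0.26, background 3.08%) and Tyms lower (-1.12 ± 0.23, background 3.62%), from 4.54, 5.50 and 3.46 CPM to 1.16, 2.23 and 2.91 CPM. Gins2 also rose at 4 h in LAT WT cells, from a mean of 0.459 to 0.919 CPM per kilobase. It was not called there in the reported fit, but was under DESeq2, RLE factors, the low-count filter and the replicate block.

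The rise in Lat-/- cells differed between libraries. Library 3 was the highest of the 3 Lat-/- libraries at 20 h for 36 of the 41 genes, library 1 for 3 and library 2 for 2. As a percentage of the rise in WT cells, which was under 2-fold for Rpa1, that gene stood at 153, 217 and 171 in libraries 1, 2 and 3. With Rpa1 left out, the median of this percentage over 40 genes was 0.878 in library 1, -0.331 in library 2 and 4.34 in library 3. Activation markers had the same order at the top, and Il2ra, the IL-2 receptor alpha chain that rises on activation, was at 18.5, 7.61 and 44.6 CPM in libraries 1, 2 and 3 and at 722 to 757 CPM in WT libraries. Their part in the rise was not tested. Without library 3, 4 genes (Orc1, Cdc6, Mcm10 and Gins2) were called higher in Lat-/- cells at 20 h, and without library 2, 10 were, with Cdc45 and Mcm6 added. Without library 3, 6 of the 11 genes were called between 4 and 20 h. The count of genes called lower than in WT cells at 20 h stayed at 40 without each other library in turn and was 39 without Lat-/- library 1 (Gins4 at -0.93).

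**Figure D5:**
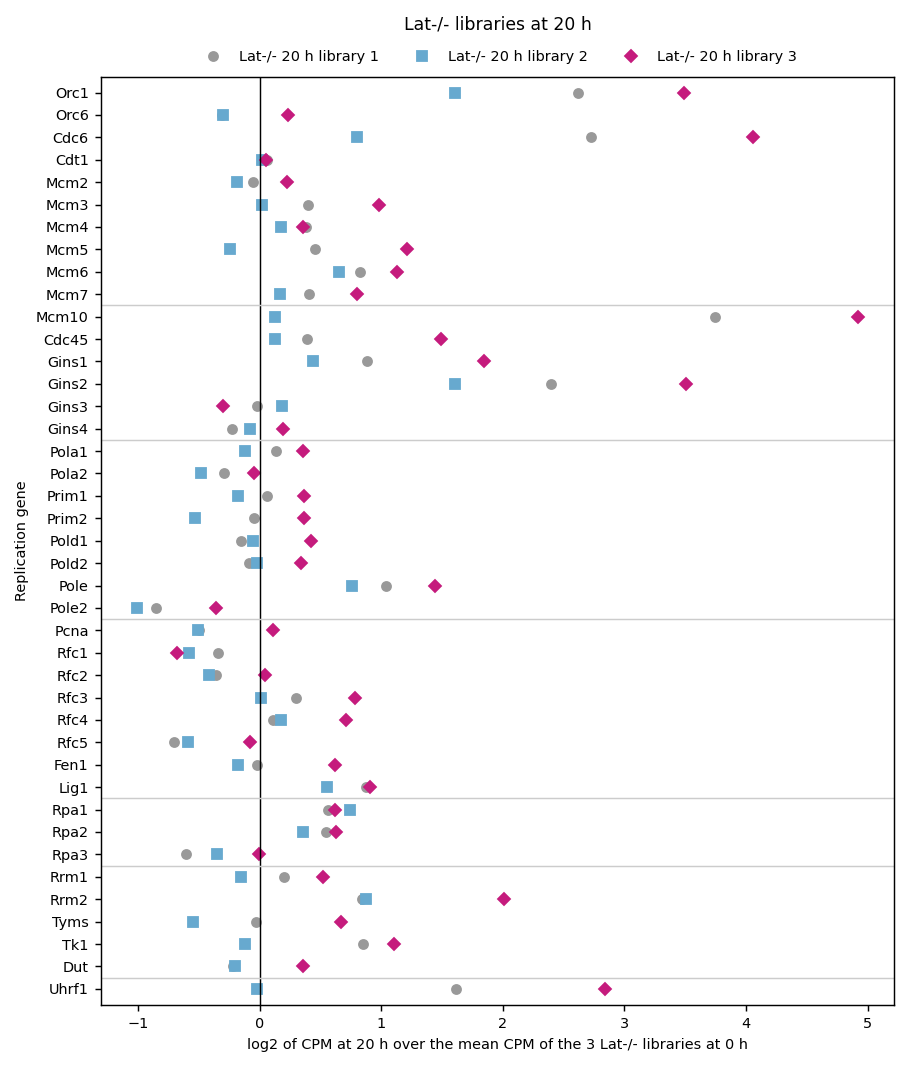
Log2 of the CPM at 20 h in each Lat-/- library over the mean CPM of the 3 Lat-/- libraries at 0 h (x axis) for the 41 replication genes (y axis, lines divide the roles). The points of library 3 lie furthest to the right for 36 of the 41 genes, and Mcm10, Cdc6, Gins2, Orc1 and Uhrf1 reach the highest values.

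Before stimulation, few of the replication genes were called different between WT and Lat-/- cells, though more than the background share. Of the 41 genes, 2 were called lower in Lat-/- cells at 0 h (background 0.814%), Cdc6 (-1.34 ± 0.37, adjusted p = 0.0213) and Gins2 (-1.01 ± 0.26, adjusted p = 0.00858). Cdc6 was at 0.543, 0.186 and 0.163 CPM in Lat-/- and 0.784, 0.455 and 0.945 CPM in WT cells, which overlapped, and the Lat-/- libraries held 11, 4 and 4 counts. Gins2 was at 0.790, 1.21 and 0.813 CPM against 1.80, 1.74 and 2.10 CPM, which did not overlap. With same-numbered libraries as a block, Cdc6 alone was called, and DESeq2 called 0.

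At 4 h, few of the genes differed. Against WT cells, 1 gene was called higher (background 5.51%) and 4 lower (background 6.23%) in Lat-/- cells. Rpa1 was the higher one, with 414, 486 and 373 CPM against 166, 170 and 250 CPM (1.12 ± 0.15, adjusted p = 1.48e-12), and the fall of Rpa1 seen in WT cells was thus not seen in Lat-/- cells, where the change from 0 h was 0.26 ± 0.15. Pcna was lower, with 125, 126 and 135 CPM against 277, 283 and 284 CPM (-1.12 ± 0.15, adjusted p = 1.6e-12). Its libraries, like those of Rpa1, were wide apart between the genotypes. Tk1 (-1.84 ± 0.36) and Gins1 (-1.09 ± 0.31) were lower as well. Without TMM factors, neither Pcna nor Gins1 was called. Gins1 was also not called in the fit of the compared groups or without Lat-/- replicate 2 at 4 h. For Mcm10, also called lower, Lat-/- libraries held 0, 0 and 2 counts and WT libraries 3, 6 and 8, so that no fold is given.

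The 4 h responses themselves differed between the genotypes, by the interaction term, for 4 genes. Rpa1 (1.17 ± 0.21, adjusted p = 6.47e-07), Lig1 (1.29 ± 0.22, adjusted p = 2.41e-07) and Cdc6 (1.76 ± 0.59, adjusted p = 0.0215) had higher responses in Lat-/- cells (background 4.37%), and Pcna had a lower one (-1.18 ± 0.21, adjusted p = 6.92e-07, background 4.34%). These counts, 3 and 1 of 41, are near or under the backgrounds. Cdc6, with few counts, was not called under DESeq2, the low-count filter or a fit of the compared groups, nor without replicate 2 or 3 of Lat-/- cells at 0 h, replicate 1 of Lat-/- cells at 4 h, or WT replicate 3 at 0 h or 1 at 4 h. Rpa1, Lig1 and Pcna stayed called under each of these. Lig1 was at 26.1, 29.1 and 24.4 CPM at 0 h and 13.3, 15.0 and 23.8 CPM at 4 h in WT cells, and at 23.2, 20.5 and 18.9 CPM and then 30.9, 27.9 and 41.8 CPM in Lat-/- cells. All 4 h libraries were thus below the 0 h libraries in WT cells and above them in Lat-/- cells. Without TMM factors the median of all genes for this term moved by 0.16, and 6 genes were called higher.

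In Lat-/- cells, the ratio of the highest to the lowest subunit gene fell for GINS and grew for RPA between 0 and 20 h. That of MCM2-7 stayed alike. The highest GINS gene was 174 times the lowest per kilobase at 0 h in Lat-/- cells (80.4 in WT cells) and 26.0 times at 20 h (8.30 in WT cells), and library by library the 20 h ratio ran from 17.5 to 54.2 in Lat-/- and from 7.68 to 8.70 in WT cells. The RPA genes were 4.25-fold apart at 0 h and 8.17-fold at 20 h in Lat-/- cells, against 2.48-fold in WT cells at 20 h. In Lat-/- cells, Rpa1 went from 63.3 to 99.1 and Rpa3 from 14.9 to 12.1 CPM per kilobase. The MCM2-7 genes were within 2.72-fold and 2.70-fold of each other. Among the other genes of these processes, 48 of 67 were called lower (background 12.3%) and 5 higher (background 12.1%) in Lat-/- than in WT cells at 20 h (median -2.28), and the 10 mitotic genes were all lower (median -5.33). Chek1 differed by -4.70 ± 0.22 and E2f1 by -4.39 ± 0.22. Of the 5 genes called higher, Rbl2 (1.96 ± 0.16) and Rrm2b (2.60 ± 0.17) had fallen in WT cells, and Samhd1, which breaks down deoxynucleotides, differed by 1.87 ± 0.15. In Lat-/- cells alone, 13 of the 67 were called higher at 20 h than at 0 h (background 2.14%), among them Chek1 (2.71 ± 0.27) and Chaf1a (2.88 ± 0.29).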

How the data were processed

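Replication genes were measured by RNA sequencing in 54 libraries. The authors prepared stranded mRNA libraries, sequenced single reads of 50 bases, removed adapter dimers with DimerRemover, aligned the rest to GRCm38 (STAR) and counted per gene (featureCounts). The deposited values are these raw read counts of single libraries, with no normalization, in a table per experiment. The annotation release, the use of strand and the treatment of multi-mapping reads are not given in the sources used here. The 2 tables were never fitted together, and 0 columns of samples were left unused.

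A gene entered the fit with at least 1 read over all libraries. All libraries of an experiment entered 1 fit with TMM factors and a coefficient for each genotype and time, and were tested with edgeR 4.0.16's quasi-likelihood test and Benjamini-Hochberg adjustment over all genes kept, in R 4.3.3 with limma 3.58.1 and the data.table package, version 1.17.8. A call needs an adjusted p under 0.05 and a fold above 2, the thresholds used in the study. The SE is the log2 fold change over the square root of the test's F, and the 95% interval is a normal one around it. CPM in the text are relative to TMM-scaled library sizes, and the floor of 3 counts, which covers counting error only, is relative to the unscaled total. Per the study, the 3 libraries of a condition come from independently prepared samples. Whether these come from separate mice is not given in the sources used here, and p-values measure the spread between these libraries. Counts of replicates differed beyond sampling noise in every pair. The procedures were tested on simulated counts.

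Same-numbered libraries deviated together, with every correlation above 0.1, in 17 of 18 CD5/CD6 comparisons and in 2 of 9 LAT comparisons (Lat-/- at 20 h against 0 h, and Lat-/- against WT at 0 h), as read from the data, not from the labels. Alternatives were DESeq2 1.42.0, plain library totals in place of TMM factors, RLE factors, filterByExpr (a filter on low counts), fits limited to the compared groups, the replicate block, adjusted p alone, fits without each library, and fits without both 0 h libraries that went against their labels. The reported values keep each library under its label. The replication genes, the lists and the tests were chosen with earlier results of these data known. The rule for genes named was a set of examples from each role, each gene that was not called or was called against the direction of most, the genes called in each contrast of genotypes (where none was, the gene of smallest p and that of largest change), and up to 2 genes each way in a list of other genes. Other genes of those lists in the text were chosen after their values were seen. Promoter windows were taken from RefSeq and matched by symbol, and overlaps between genes from the GENCODE annotation of GRCm38, whose coordinates equal those in the files for all 41 genes.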

Additional observations from a re-analysis of the deposited data

Results flagged for a closer look

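The difference between the responses of Lat-/- and WT cells was tested as an interaction term for each gene, and the genes past the thresholds are given here. At 4 h, the response was higher in Lat-/- than in WT cells for 3 replication genes, by 1.76 on the log2 scale for Cdc6, 1.29 for Lig1 and 1.17 for Rpa1. It was lower for 1 gene, Pcna, with a difference of -1.18. At 20 h, the response was lower in Lat-/- cells for 40 of the 41 genes. The 4 h value of Cdc6 rests on 4 to 8 counts in the WT libraries at 4 h and on 4 to 11 counts in the Lat-/- libraries at 0 h, and it was not called under DESeq2, the low-count filter, a fit of the compared groups, or without any 1 of 5 libraries (Lat-/- replicates 2 and 3 at 0 h and 1 at 4 h, WT replicates 3 at 0 h and 1 at 4 h). The causes of these differences were not tested.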

How the results depend on the processing

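Counts are of the 41 replication genes called, and where a count moved the cause was not tested. For 4 h against 0 h, WT cells of the CD5/CD6 experiment gave 1 higher and 6 lower without TMM factors, 7 higher and 16 lower by adjusted p alone, and 2 to 6 lower when 1 library was left out (6 without WT 4 h replicate 1). Cd5-/- cells gave 1 higher without TMM factors, 6 higher and 16 lower by adjusted p alone, 2 to 5 lower with 1 library left out, and 2 lower without both 0 h libraries that went against their labels. Cd6-/- cells gave 0 higher and 6 lower without TMM factors, 7 higher and 16 lower by adjusted p alone, and 1 to 2 higher with 1 library left out. Cd5-/-Cd6-/- cells gave 0 higher without TMM factors, 1 higher in a fit of the compared groups, 8 higher and 14 lower by adjusted p alone, and 1 to 2 higher with 1 library left out. Without both 0 h libraries, Cd5-/- against WT gave 2 lower at 0 h and the difference of 20 h responses 1 higher, and Cd5-/- against WT at 4 h gave 0 to 1 lower with 1 library left out.

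In the LAT experiment, WT cells at 4 h gave 2 higher under DESeq2, RLE factors, the low-count filter and the replicate block, 8 by adjusted p alone and 1 to 2 with 1 library left out. They gave 1 lower under DESeq2 and the filter, 7 without TMM factors, 15 by adjusted p alone and 2 to 4 with 1 library left out. Lat-/- cells at 4 h gave 4 higher and 5 lower by adjusted p alone and 0 to 3 lower with 1 library left out. At 20 h against 0 h they gave 16 higher and 2 lower by adjusted p alone and 4 to 10 higher with 1 library left out, and against 4 h 1 lower by adjusted p alone and 6 to 12 higher with 1 library left out. Lat-/- against WT at 0 h gave 0 lower under DESeq2, the filter and the fit of the compared groups, 1 with the replicate block, 4 by adjusted p alone and 0 to 3 with 1 library left out. At 4 h it gave 2 higher and 2 lower without TMM factors, 2 lower in the fit of the compared groups, 6 higher and 11 lower by adjusted p alone, and 1 to 3 higher and 3 to 5 lower with 1 library left out. The difference of 4 h responses gave 6 higher without TMM factors, 6 higher and 3 lower by adjusted p alone and 2 to 5 higher with 1 library left out.

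The replicate block changed the count of calls for WT at 4 h and Lat-/- against WT at 0 h in the LAT experiment, as given, and moved no other count by over 1.5 times. Of the alternative counts, 842 stayed within 1.5 times the reported one and 66 did not. Among log2 differences of single genes, 3 changed sign with 1 library left out. For Rrm2 in Cd5-/- against WT at 4 h they ran from -1.13 to 0.060 (above 0 without WT replicate 1), and for Lig1 in Cd6-/- against WT at 20 h from -0.32 to 0.061 (above 0 without WT replicate 1, at 0.040, or without Cd6-/- replicate 3). Genes under about 1 CPM, such as Mcm10, Cdc6, Orc1 and Fen1 at 0 h, are limited by depth.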
